A study of Mus musculus with 8 samples.

Results

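The ligand, receptor and Smad genes of the transforming growth factor beta (TGF-beta) pathway, 10 in all, were followed in cultured mouse hippocampal neurons exposed to bicuculline: the ligand genes Tgfb1, Tgfb2 and Tgfb3, the receptor genes Tgfbr1, Tgfbr2 and Tgfbr3, and the signal transducer genes Smad2, Smad3, Smad4 and Smad7. They were taken by symbol from the platform annotation, as 10 of the 19938 genes tested. A gene with several transcript clusters (the array's unit, 1 value per cluster and array) would have been read from the cluster with the highest mean signal, but each of the 10 had 1 cluster. The members were thus chosen by symbol, with no measured signal choosing among clusters, but with the lower late signal of Tgfbr1 in these data already known, so its tests are no independent evidence.

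Groups of 2 biological replicates each were measured on Affymetrix Mouse Gene ST 1.0 arrays, at 0, 30, 180 and 300 min of 50 µM bicuculline. All cultures came from hippocampus of ICR mouse embryos at E17.5 (embryonic day), an outbred strain, and had grown for 10 days in vitro. Bicuculline blocks GABA-A receptors and so raises network firing. The labels name no vehicle arm, so each change is a difference between times, and the time in drug cannot be told apart from the time of collection.

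TGF-beta ligands are secreted in a latent form and, once released, bind a type II receptor (encoded by Tgfbr2), which recruits and phosphorylates the type I receptor kinase (Tgfbr1, also called ALK5). The type I receptor phosphorylates Smad2 and Smad3, which join Smad4, enter the nucleus and regulate transcription, while Smad7 is an inhibitory Smad whose own gene is a classical target of the pathway. In the nervous system the pathway is known for roles in neuronal survival, axon formation and synapse development, and both neurons and glia use it.

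The activity-induced transcription factor gene Npas4 had log2 signals of 5.67 and 5.96 at 0 min, 9.67 and 9.72 at 30 min, 7.65 and 7.43 at 180 min and 7.54 and 7.83 at 300 min. Npas4 rose by 3.88 ± 0.14 at 30 min against 0 min (SE, limma adjusted p = 2.67e-09), and Fos, another immediate-early gene, by 2.29 ± 0.15 (adjusted p = 2.02e-06). The 12 measured neuron markers and the 10 astrocyte markers all had mean signals above 4.47, the 95th percentile of 1015 olfactory receptor genes, which served as a mark of background. So did 7 of 10 fibroblast and mural cell markers, 6 of 7 oligodendrocyte lineage markers, 5 of 9 microglia markers and 3 of 7 endothelial markers. Among those not above it were P2ry12 and Itgam of microglia and Pecam1, Cdh5, Tek and Emcn of endothelium. Markers of several cell types were thus measured in the same RNA, in which fewer cells of a type and less RNA per cell cannot be told apart. All 10 TGF-beta genes were above the background mark on all 8 arrays.

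Tgfbr1 was lower after 180 and 300 min of bicuculline, and it was the 1 member that passed the test against 0 min. Its log2 signals were 5.93 and 6.07 at 0 min, 5.85 and 5.87 at 30 min, 5.31 and 5.04 at 180 min and 5.10 and 5.35 at 300 min. The 4 late arrays all lay below the 4 early ones, with 0.49 between the nearest early and late arrays. Tgfbr1 fell by 0.82 ± 0.13 on the log2 scale at 180 min against 0 min (SE, n = 2 each), a level 1.76-fold lower (limma adjusted p = 0.024). At 300 min it fell by 0.77 ± 0.13 against 0 min, a level 1.71-fold lower (limma adjusted p = 0.0285). Lower calls were made for 0.12% of all genes at 180 min and 0.0602% at 300 min.

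The comparisons of Tgfbr1 with the 30 min arrays gave the same direction. It fell by 0.68 ± 0.13 at 180 min against 30 min (limma adjusted p = 0.0413), where 0.171% of genes were called lower, and by 0.63 ± 0.13 at 300 min against 30 min (adjusted p = 0.0457), where 0.181% were. Both calls against 30 min ended without any single array of 0 min, 30 min or the late time compared, where the adjusted p reached at most 0.325 at 180 min and 0.296 at 300 min. The comparisons of 180 with 0 min and of 300 with 30 min share no array, though they share the estimate of spread. Between the early times the difference was −0.14, with a 95% interval of −0.43 to 0.15, and between 300 and 180 min it was 0.05, with an interval of −0.24 to 0.34. The F test over the 4 times gave Tgfbr1 an adjusted p of 0.00893, and it was the 1 member called among 0.813% of all genes.

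These calls rested on few arrays. Against 0 min at 180 min the change of Tgfbr1 ranged from −0.96 to −0.68 when each array was left out in turn. Leaving out any single array of 0 or 30 min, or replicate 2 of 180 min, ended the call, and the adjusted p then reached at most 0.127 (limma). At 300 min the change ranged from −0.89 to −0.65, and leaving out any single array of 0 or 30 min, or replicate 1 of 300 min, ended the call, with adjusted p of at most 0.245 (limma).

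**Figure D1:**
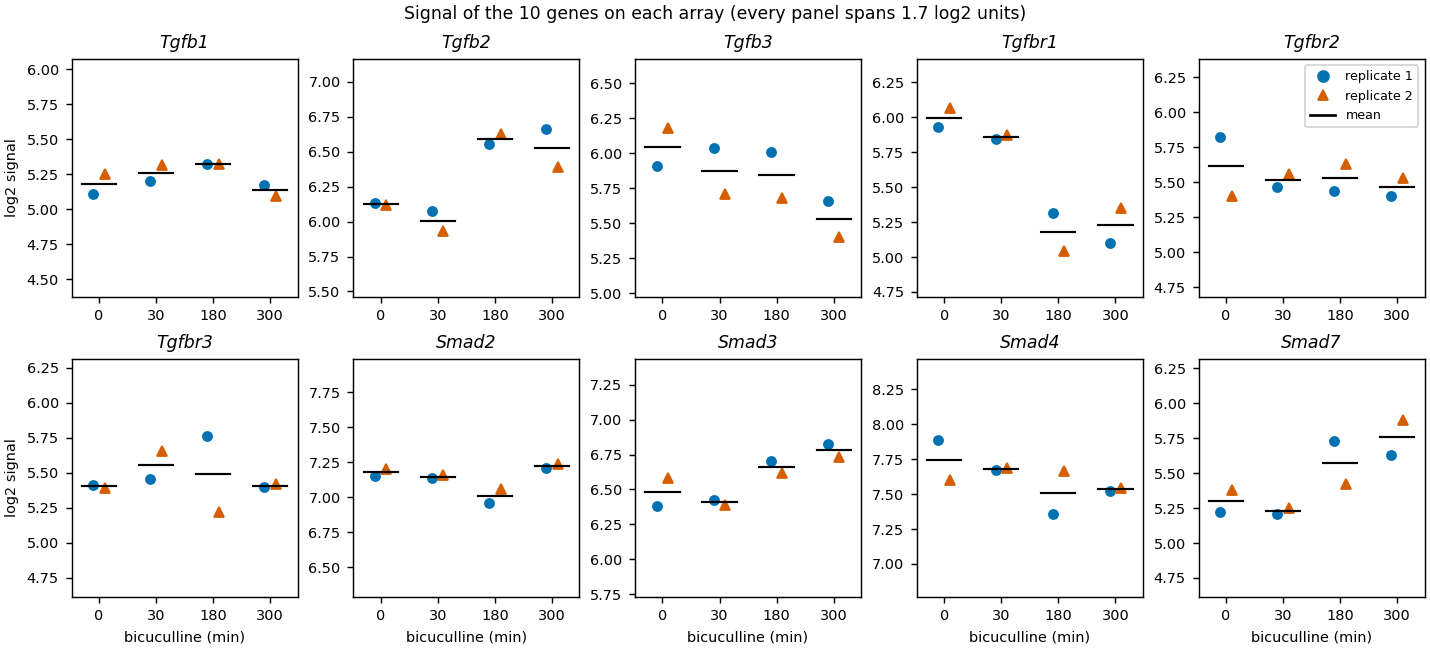
Log2 signal (y axis) of each of the 10 genes on the 8 arrays, by minutes of bicuculline (x axis). Points are single arrays, replicate 1 as circles and replicate 2 as triangles, bars are the means of 2 arrays, and all panels have the same span. The late arrays of Tgfbr1 lie between 5.04 and 5.35, below its early arrays, and those of Tgfb2 lie between 6.39 and 6.66, above its early arrays.

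A contrast of the mean of both late times with the mean of both early times used 4 arrays on each side. It was chosen after these values had been seen, so its p-values, its counts and their stability are no independent evidence. In it Tgfbr1 fell by 0.73 ± 0.10 (SE, limma adjusted p = 0.00118), which is 1.65-fold lower. The call held without each of the 8 arrays in turn, with changes of −0.79 to −0.66 and a highest adjusted p of 0.00999. In this contrast 1.01% of all genes were called lower and 1.2% higher, and 3 of the 10 members were called, Tgfbr1 lower and Tgfb2 and Smad7 higher, against 2.22% of all genes in either direction. The early and late arrays did not overlap for 4 of the 10 (these 3 and Smad3), against 8.82% of all genes.

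Tgfb2, the gene of the TGF-beta 2 ligand, was higher at the late times. On the log2 scale it had 6.13 and 6.12 at 0 min, 6.08 and 5.93 at 30 min, 6.55 and 6.63 at 180 min and 6.66 and 6.39 at 300 min. All 4 late arrays lay above all 4 early ones. In the late against early contrast Tgfb2 rose by 0.49 ± 0.09 (SE), or 1.41-fold (limma adjusted p = 0.0107), and the call was lost without 30 min replicate 2 (adjusted p = 0.0601) and without 300 min replicate 1 (0.0532). Between single times it did not pass: its change was 0.47 ± 0.13 at 180 min against 0 min (adjusted p = 0.153), 0.40 ± 0.13 at 300 min against 0 min (0.298), 0.58 ± 0.13 at 180 min against 30 min (0.0704) and 0.52 ± 0.13 at 300 min against 30 min (0.0896). At 180 min against 30 min the call was gained under quantile normalization (0.0444), with dim genes left out (0.0401) and with a trend in the prior variance (0.0414).

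The promoters of the receptor gene that fell and of the ligand gene that was higher late are shown because the pair moved in opposite directions. Each is the 250 bases before the RefSeq gene start on build GRCm38.p6, 5′ to 3′ on the gene's strand, with Tgfbr1 at chr4:47352972-47353221 (plus strand) and Tgfb2 at chr1:186705990-186706239 (minus strand). Capitals mark every match, on either strand, to the motifs searched. The GC box was searched as the letters GGGCGG, the CCAAT box by the letters of its name, and the TATA box as the letters TATAAA. The E-box was searched as the palindrome CACGTG and the AP-1 element by the letters TGANTCA, where N is any base. The CRE (cyclic AMP response element) was searched as its full palindrome of 8 letters, TGACGTCA, and separately as the half-site TGACG, which lies within the full element.
Tgfbr1: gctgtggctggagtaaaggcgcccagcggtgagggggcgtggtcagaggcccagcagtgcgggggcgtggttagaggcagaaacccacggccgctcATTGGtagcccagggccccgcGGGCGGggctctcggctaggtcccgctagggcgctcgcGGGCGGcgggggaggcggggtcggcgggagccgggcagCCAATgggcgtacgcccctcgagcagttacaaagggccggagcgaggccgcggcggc
Tgfb2: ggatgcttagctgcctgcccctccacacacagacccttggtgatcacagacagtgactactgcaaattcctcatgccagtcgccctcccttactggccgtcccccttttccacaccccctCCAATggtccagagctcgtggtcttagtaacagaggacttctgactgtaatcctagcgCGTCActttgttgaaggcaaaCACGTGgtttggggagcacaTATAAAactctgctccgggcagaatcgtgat

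The Tgfbr1 window had a GC content of 74.8% and held 2 GC boxes, 133 and 95 bases before the start, and 2 CCAAT boxes, 154 and 57 bases before it. It held none of the other motifs searched. The Tgfb2 window had a GC content of 53.6% and held a TATA box 31 bases before the start, an E-box 51 bases before it, a CRE half-site 72 bases before it and a CCAAT box 130 bases before it, each once. Among 32851 promoter windows of the same length, the GC box was found in 32.7%, the CCAAT box in 33.8%, the half-site in 17.8%, the TATA box in 12.4%, AP-1 in 6.75%, the E-box in 6.02% and the full CRE in 1.55%. The median GC content of these windows was 52.4%. Of the other members outside chromosome 18, Tgfb1, Tgfbr2 and Smad3 also had an entry, with 5, 0 and 2 GC boxes, and none of the 3 held a TATA box, an E-box, AP-1 or a CRE half-site. These matches are descriptions of letters in a window and were not set against the changes by any test.

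Smad7, the inhibitory Smad, was the other member called higher in the late against early contrast. Its log2 signals were 5.22 and 5.38 at 0 min, 5.20 and 5.25 at 30 min, 5.73 and 5.42 at 180 min and 5.63 and 5.88 at 300 min. The late arrays lay above the early ones, but by only 0.04 between the lowest late and the highest early array. In the late against early contrast Smad7 rose by 0.40 ± 0.10 (SE), or 1.32-fold (limma adjusted p = 0.0484), and 5 of 16 alternative settings kept the call, with a highest adjusted p of 0.232. With replicate number as a block the adjusted p was 0.0581. Against 0 min its change was 0.27 ± 0.14 at 180 min (adjusted p = 0.435) and 0.45 ± 0.14 at 300 min (0.266), and neither passed.

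Smad3 and Smad2, the receptor-activated Smads, did not pass in any comparison. Smad3 had log2 signals of 6.38 and 6.58 at 0 min, 6.43 and 6.39 at 30 min, 6.70 and 6.62 at 180 min and 6.82 and 6.74 at 300 min. Its late arrays all lay above its early ones, and the late against early difference was 0.28 ± 0.09 (SE, limma adjusted p = 0.123). Smad2 had signals of 7.15 and 7.20 at 0 min, 7.14 and 7.16 at 30 min, 6.96 and 7.06 at 180 min and 7.21 and 7.23 at 300 min. Its lowest arrays were those of 180 min, 0.17 ± 0.11 below 0 min (adjusted p = 0.575), and the 95% intervals of its changes against 0 min ran from −0.41 to 0.29 over the 3 times.

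Smad4, the partner shared by all receptor-activated Smads, had log2 signals of 7.89 and 7.60 at 0 min, 7.67 and 7.68 at 30 min, 7.35 and 7.66 at 180 min and 7.52 and 7.55 at 300 min. The arrays of 180 min overlapped those of 0 min, and the late against early difference was −0.19 ± 0.10 (SE, limma adjusted p = 0.415). The spread of the pair at 0 min (SD 0.20) and at 180 min (SD 0.22) was as large as that difference.

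The other receptors showed no change of the size seen in Tgfbr1. Tgfbr2, the type II receptor gene, had log2 signals of 5.82 and 5.40 at 0 min, 5.46 and 5.56 at 30 min, 5.43 and 5.63 at 180 min and 5.40 and 5.53 at 300 min. Its pair at 0 min spread over 0.42, the widest gap of any member at that time, and the other 6 arrays lay within it. The 95% interval of its late against early difference ran from −0.29 to 0.16, while that of Tgfbr1 ran from −0.93 to −0.52. The difference between the 2 genes was not itself tested.

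Tgfbr3 encodes betaglycan, a co-receptor that presents ligand to the type II receptor. Betaglycan transcripts gave log2 signals of 5.41 and 5.39 at 0 min, 5.46 and 5.65 at 30 min, 5.76 and 5.22 at 180 min and 5.40 and 5.42 at 300 min. The 2 arrays of 180 min were the highest and the lowest of the 8, 0.55 apart, so the mean at that time says little. The late against early difference was −0.03, with a 95% interval of −0.27 to 0.21.

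Of the other ligand genes, Tgfb3 was lowest at 300 min. The log2 signals of Tgfb3 were 5.91 and 6.18 at 0 min, 6.04 and 5.71 at 30 min, 6.01 and 5.68 at 180 min and 5.66 and 5.40 at 300 min. The 300 min arrays lay below those of every earlier time, and the difference from 0 min was −0.52 ± 0.16 (SE, limma adjusted p = 0.275), which did not pass. Tgfb1 had signals of 5.11 and 5.25 at 0 min, 5.20 and 5.31 at 30 min, 5.32 and 5.32 at 180 min and 5.17 and 5.10 at 300 min. Its 4 means lay within 0.19 of each other, and the F test over the 4 times gave an adjusted p of 0.798.

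At 30 min against 0 min, 0 of the 10 members were called (limma), while 0.0953% of all genes were, and 0 had an unadjusted p under 0.05, while 5.11% of all genes did. At 300 min against 180 min 0 were called (limma), as were 0% of all genes, and 0 had an unadjusted p under 0.05, against 5.72% of all genes. At 180 min against 0 min 2 of the 10 had an unadjusted p under 0.05 (Tgfbr1 and Tgfb2), against 12.8% of all genes. At 300 min against 0 min 5 did (Tgfbr1 and Tgfb3 lower, Tgfb2, Smad3 and Smad7 higher), against 8.96% of all genes.

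The arrays of the 2 times did not overlap for 6 of the 10 genes at 180 min against 0 min, with a share of 43.6% over all genes. At 300 min against 0 min this was so for 7 of the 10, with a share of 38.4% over all genes. The comparisons against 0 min share their 0 min arrays. The median change of the 10 genes was −0.07 at 30 min, 0.004 at 180 min and −0.02 at 300 min against 0 min, beside medians of 0.00056, −0.00071 and −0.0025 over all genes. The number of members with a change above 0 was 2 of 10 at 30 min, 5 at 180 min and 5 at 300 min. Over all genes the shares above 0 were 50.2%, 49.9% and 49.4%.

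**Figure D2:**
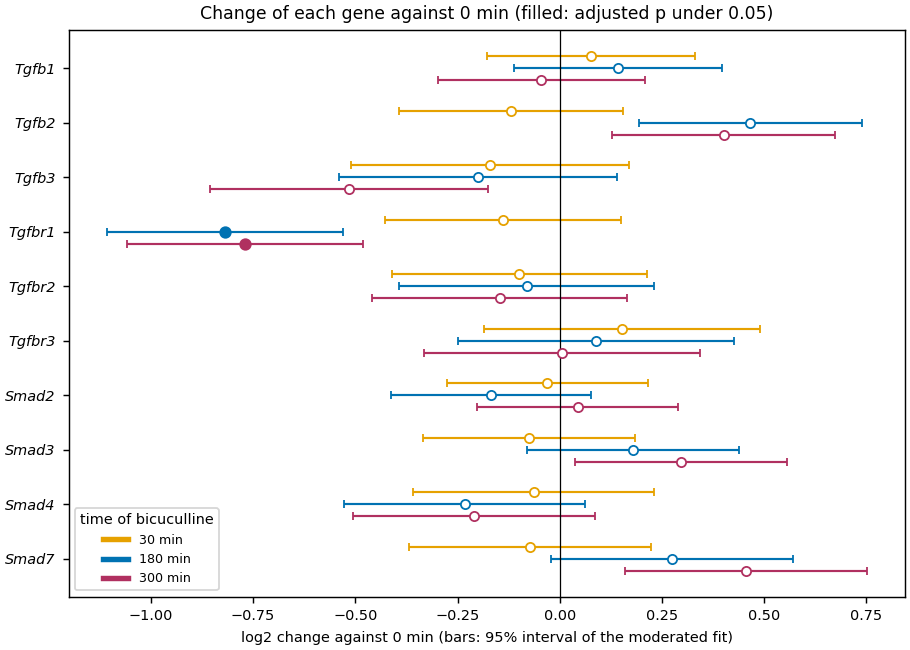
Log2 change of each gene against 0 min (x axis) at 30, 180 and 300 min, with 95% intervals of the moderated fit as bars and filled points where the adjusted p was under 0.05. Tgfbr1 has the 2 filled points, at −0.82 and −0.77, and the intervals of Tgfb2 at both late times and of Tgfb3, Smad3 and Smad7 at 300 min leave out 0 without passing the adjustment.

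Markers of other cell types were summed at the times at which Tgfbr1 fell, and 0 of them passed against 0 min at any time (limma). The summed linear signal of the 10 astrocyte markers ran from 1062 to 1255 at 0 min, from 1097 to 1177 at 30 min, from 989 to 1088 at 180 min and from 949 to 1092 at 300 min. All 10 had a late against early difference below 0, with a median of −0.08 and a lowest of −0.29 on the log2 scale, beside −0.73 for Tgfbr1. Over all genes 49.0% had a difference above 0 in this contrast. At an unadjusted p under 0.05 2 of the 10 were lower in that contrast, against 8% of all genes. The early side of it includes 30 min, when 2 of the 10 were higher than at 0 min at an unadjusted p under 0.05, against 2.76% of all genes. The highest change at 30 min was 0.48. At 180 min against 0 min the astrocyte median was −0.03 and the lowest −0.37, with 5 of 10 above 0. At an unadjusted p under 0.05 3 of 10 were lower, against 7.07% of all genes. At 300 min the median was −0.15 and the lowest −0.42, with 2 of 10 above 0 and 1 of 10 lower, against 4.71%. Of the 3 brightest astrocyte markers, Aldoc differed by −0.37, Slc1a2 by −0.34 and Slc1a3 by 0.10 at 180 min against 0 min. The fibroblast and mural cell markers summed to 1047 to 1155 at 0 min, 1004 to 1103 at 30 min, 1105 to 1280 at 180 min and 981 to 984 at 300 min. The microglia markers summed to 284 to 290 at 0 min, 270 to 294 at 30 min, 276 to 318 at 180 min and 263 to 266 at 300 min, and the endothelial markers to 144 to 150, 154 to 169, 153 to 159 and 149 to 152 at the same times. The oligodendrocyte lineage markers summed to 243 to 251 at 0 min, 255 to 273 at 30 min, 260 to 263 at 180 min and 230 to 243 at 300 min. The neuron markers summed to 10518 to 11306 at 0 min, 11130 to 11204 at 30 min, 10158 to 10524 at 180 min and 10962 to 11287 at 300 min. Their 3 brightest genes, Stmn2, Syt1 and Tubb3, differed by −0.04, −0.09 and −0.20 at 180 min against 0 min. Over the 12 neuron markers the median was −0.06 at 180 min, with 4 above 0, and 0.07 at 300 min, with 8 above 0. At an unadjusted p under 0.05 1 of the 12 was higher at 300 min against 0 min, against 4.25% of all genes. The brightest of the other lists were C1qa, Trem2 and Aif1 (microglia), Mbp, Olig1 and Sox10 (oligodendrocyte lineage), Cldn5, Kdr and Flt1 (endothelium) and Acta2, Col1a1 and Dcn (fibroblasts and mural cells). The part of these cells in the changes of the TGF-beta genes was not tested.

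Genes around the pathway were described from lists of their roles. Over all genes, an unadjusted p under 0.05 was reached by 2.76% higher and 2.34% lower at 30 min against 0 min, by 5.71% higher and 7.07% lower at 180 min, and by 4.25% higher and 4.71% lower at 300 min. Of 22 measured genes that hold TGF-beta latent or release it, such as latent TGF-beta binding proteins, integrins and thrombospondins, 0 passed at 30, 180 or 300 min against 0 min (limma). At an unadjusted p under 0.05 0 of them were called at 30 and 180 min and 2 lower at 300 min. The integrin subunit genes Itgav (−0.38 ± 0.14 SE) and Itgb5 (−0.28 ± 0.12) and the matrix proteoglycan gene Dcn (0.36 ± 0.18) had the smallest F test p, with their changes given at 300 min. The list's median was −0.01 at 180 min and −0.06 at 300 min.

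Of 12 other receptor genes of the superfamily, 0 passed at any time against 0 min (limma), and at an unadjusted p under 0.05 2 were lower at 180 min and 1 at 300 min. Acvr2a, a type II activin receptor gene, had log2 signals of 8.42 and 8.50 at 0 min, 8.30 and 8.25 at 30 min, 8.18 and 7.95 at 180 min and 8.16 and 8.14 at 300 min, and its change at 180 min was −0.39 ± 0.12 (SE, adjusted p = 0.202). Bmpr2, the type II receptor gene for bone morphogenetic proteins, changed by −0.38 ± 0.14 at 180 min (adjusted p = 0.264), and Acvr1, a type I receptor gene, by 0.21 ± 0.11 (adjusted p = 0.476). The list's median was 0.004 at 180 min and −0.05 at 300 min.

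Of 19 other ligand and antagonist genes, 1 rose and 18 did not pass at 180 and at 300 min against 0 min, with background shares of 0.211% and 0.226% for higher calls. The gene that rose was Inhba, which encodes the activin A subunit and whose receptors also signal through Smad2 and Smad3. Its log2 signals were 5.04 and 5.14 at 0 min, 5.01 and 4.93 at 30 min, 5.62 and 6.21 at 180 min and 6.29 and 6.12 at 300 min. At 300 min it rose 2.17-fold against 0 min (1.12 ± 0.16 SE on the log2 scale, limma adjusted p = 0.00681), and the call was lost without 0 min replicate 1 (0.087), 0 min replicate 2 (0.0502) or 300 min replicate 1 (0.118). At 180 min the adjusted p was 0.0493 (0.0545 with replicate number as a block), and the call was lost without each array except 180 min replicate 1, with a change of 0.54 without 180 min replicate 2. With every row tested, rows without a gene included, both Inhba calls ended (limma adjusted p = 0.392 at 180 min and 0.362 at 300 min). Fits to only the arrays of the 2 times compared ended the 180 min call (0.122) and kept the 300 min call (0.00368). Inhbb, the other activin subunit gene with a small F test p, changed by 0.41 ± 0.13 at 300 min against 0 min (adjusted p = 0.295). Mstn, the myostatin gene, was not above the background mark on any array.

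Of 20 further Smads and Smad partners 0 passed at any time against 0 min (limma), and at an unadjusted p under 0.05 5 were lower at 180 min, and 2 lower and 1 higher at 300 min. Zfyve16, which encodes an endosomal Smad-binding protein, had the smallest F test p of this list and did not pass (change 0.29 ± 0.12 SE at 300 min, adjusted p = 0.473, and −0.17 at 180 min). The coactivator gene Crebbp changed by −0.40 ± 0.14 (SE) and the Smad-binding repressor gene Zeb2 by −0.39 ± 0.12 at 180 min. The list's median was −0.08 at 180 min and −0.11 at 300 min. Of 18 regulators of the pathway's strength, most of them inhibitors, 0 passed (limma), and at an unadjusted p under 0.05 6 were lower and 2 higher at 180 min and 3 were lower at 300 min.

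Skil, which encodes the Smad corepressor SnoN, had the smallest F test p of these regulators. Its log2 signals were 6.81 and 6.85 at 0 min, 6.55 and 6.50 at 30 min, 6.33 and 6.32 at 180 min and 6.35 and 6.55 at 300 min, and its change at 180 min was −0.50 ± 0.12 (SE, adjusted p = 0.105). The ubiquitin ligase genes Smurf1 and Rnf111 changed by −0.43 ± 0.12 and −0.42 ± 0.12 at 180 min. Smurf1 is known to promote turnover of receptors and Smads, and Rnf111 (Arkadia) to promote signalling by degrading Smad7 and SnoN.

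Of 26 measured genes known as transcriptional targets of TGF-beta, 2 rose at 30 min against 0 min, with a background share of 0.0802% for higher calls. They were Junb, an AP-1 subunit gene (1.35 ± 0.17 SE, limma adjusted p = 0.00234), and Gadd45b, a stress-response gene (1.14 ± 0.18, adjusted p = 0.0198), both of which are also immediate-early genes of neurons. Leaving out replicate 2 of 0 min or replicate 1 of 30 min ended the Junb call (adjusted p up to 0.0713). That of Gadd45b ended without any 1 of the 4 arrays compared (adjusted p up to 0.303). Both calls also ended with every row tested, rows without a gene included (limma adjusted p = 0.274 for Junb and 0.518 for Gadd45b). At 180 and 300 min 0 of the 26 passed against 0 min (limma). At an unadjusted p under 0.05 3 were higher and 1 was lower at 180 min, and 1 was higher and 6 were lower at 300 min. The median was 0.08 at 180 min and −0.12 at 300 min, a change of sign between the late times. Ccn1, a matricellular protein gene, changed by 0.41 ± 0.15 at 30 min (limma adjusted p = 0.897) and −0.36 ± 0.15 at 300 min (0.502) against 0 min. It fell by 0.78 ± 0.15 at 300 min against 30 min (limma adjusted p = 0.0297). In that comparison 2 of the 26 were called lower, Ccn1 and Junb, against 0.181% of all genes. The list's lowest change was the −1.14 of Junb. At 180 min against 30 min 1 of the 26, Junb, was called lower, against 0.171% of all genes. Both lower calls of Junb were thus set against its 30 min rise. Against 0 min Junb still differed by 0.31 at 180 min and 0.20 at 300 min (limma adjusted p = 0.479 and 0.797).

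**Figure D3:**
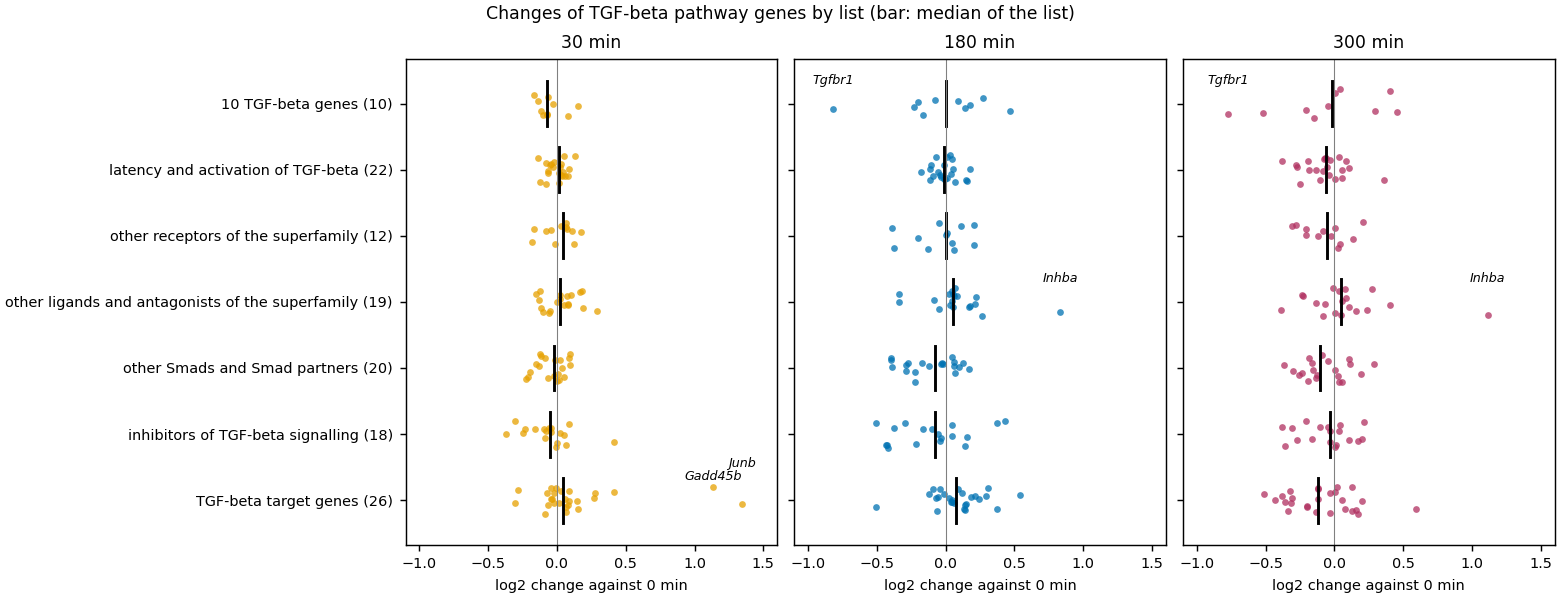
Log2 change against 0 min (x axis) of the 10 TGF-beta genes and of 6 lists of pathway genes (rows, with the number of genes measured) at 30, 180 and 300 min. Points are genes, bars are the list medians, and genes beyond 0.7 either way are named: Junb and Gadd45b at 30 min, and Tgfbr1 and Inhba at 180 and 300 min.

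The signals most like those of Tgfbr1 over the 8 arrays, among 12806 named genes above the background mark, were those of the kinase gene Tnik (Pearson r = 0.991), the sterol isomerase gene Ebp (0.983), Pdcd4, which encodes an inhibitor of translation initiation (0.983), the mismatch repair gene Mlh3 (0.981) and Srl (0.980). These correlations describe 8 arrays that share 4 times, and the genes were picked for them. Pdcd4 had log2 signals of 7.67 and 7.81 at 0 min, 7.71 and 7.68 at 30 min, 7.17 and 6.88 at 180 min and 6.90 and 7.34 at 300 min, and its change at 180 min against 0 min was −0.72 ± 0.15 (SE, limma adjusted p = 0.0725). Pdcd4 passed the F test over the 4 times (adjusted p = 0.0432). None of the 5 passed against 0 min at 180 or 300 min, with changes between −0.72 and −0.34 at 180 min and between −0.62 and −0.31 at 300 min.

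**Figure D4:**
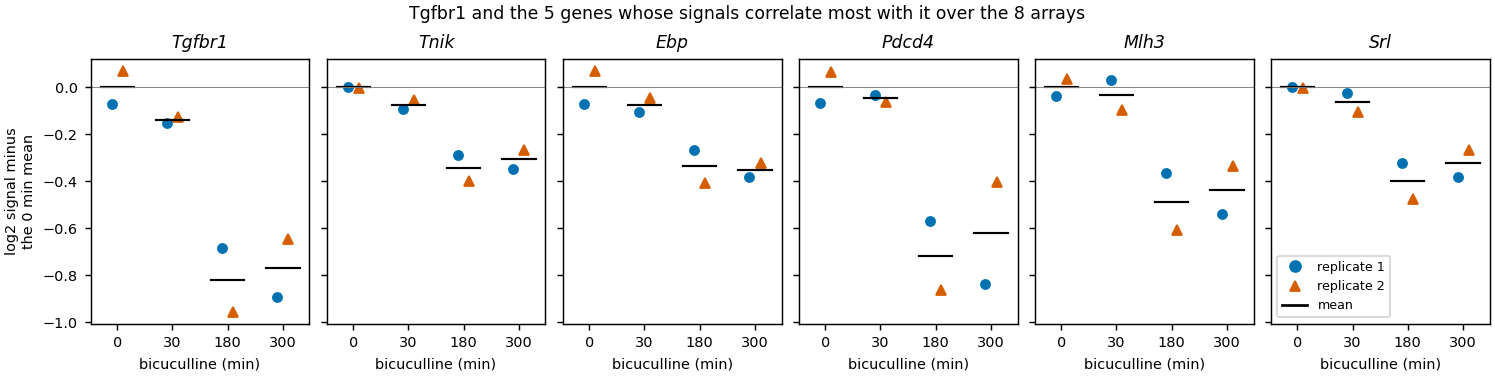
Log2 signal minus the gene's own 0 min mean (y axis) for Tgfbr1 and the 5 genes that correlate most with it, by minutes of bicuculline (x axis), with single arrays as points and means as bars. In each of the 6 panels the arrays of 180 and 300 min lie below those of 0 and 30 min.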

How the data were processed

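RNA of 8 cultures was hybridised to Affymetrix Mouse Gene ST 1.0 arrays, per the labels' protocols. The authors deposited log2 signals, 1 for each transcript cluster and array; the base was taken from their range (1.22 to 14.96). Background correction, normalization and build are not given in the sources used here. Array medians were 4.84 to 4.88.

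Of 35399 rows, 21789 had 1 gene symbol, 1621 several and 11989 none, and 19938 genes remained after keeping the cluster of the highest mean. The test was limma 3.58.1 under R 4.3.3 (lmFit, eBayes, a mean for each time, 4 residual degrees of freedom), two-sided, with Benjamini-Hochberg adjustment over all genes and a threshold of 0.05. SE and 95% intervals are moderated. Replicates are called biological in the labels with no separate dissections stated, so p-values reflect the spread of these arrays alone, which may be technical, and their number limits precision.

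The members, the lists and the comparison of late with early times were chosen with earlier results of these data known. All 10 members are named. Of each list, genes that passed against 0 min and the 3 smallest F test p are named, and of each marker list the 3 of highest mean. For Tgfbr1 the 5 genes of highest correlation are named, and Npas4 and Fos as a check of the response. Lists overlap: 12 genes stand on more than 1. Promoters are RefSeq sequences. The fit was tested on simulated data.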

Additional observations from a re-analysis of the deposited data

How the results depend on the processing

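Over 16 or 17 alternative settings for each value, 1285 of 1340 recomputed values of the 10 genes kept their side of the threshold. Of the rest, 49 calls were lost and 6 were gained, and 0 called values reversed. Most of the 1340 were not called in the main fit, so the 1285 says little of the calls. Tgfbr1 kept its call in 10 of 17 settings at 180 and at 300 min against 0 min. Against 30 min it kept it in 8 of 17 and 7 of 17 at these times. Tgfbr1 kept its late against early and F test calls in 15 of 16 each. Late against early, Tgfb2 kept its call in 13 of 16 and Smad7 in 5 of 16. Among values not called, 32 turned sign. The lost calls were those of Tgfbr1, Tgfb2 and Smad7, and the gained ones those of Tgfb2. Testing every row, rows without a gene included, left 0 members called in each comparison, with adjusted p for Tgfbr1 of 0.309 at 180 min and 0.408 at 300 min against 0 min, 0.0586 in the late against early contrast and 0.223 in the F test. Fits to only the arrays of the 2 times compared left 0 called at 180 and 300 min against 0 min (Tgfbr1 at 0.0619 and 0.0507) and at 180 min against 30 min (0.0689). At 180 min against 30 min and in the F test, quantile normalization, leaving out dim genes and a trend in the prior variance each gave 2 members, Tgfbr1 and Tgfb2. At 300 min against 30 min quantile normalization and centring on medians each gave 0. Leaving out 1 array at a time gave 0 to 1 members at 180 and 300 min against 0 min and against 30 min, 1 to 3 in the late against early contrast and 1 in each F test, and in such fits the lone array is assumed to vary like the other times. At 180 and 300 min against 30 min, the replicate block gave 0 members (Tgfbr1 adjusted p = 0.052 and 0.0558). Over all genes the same-numbered arrays did not deviate together (correlations of −0.094 to 0.092). The labels do not say whether the numbers pair the arrays, and correlations over all genes cannot decide it for single genes. In the late against early contrast the block gave 2 members in place of 3, ending the Smad7 call (0.0581). The block left the count of members unchanged in the other comparisons, and it ended the Inhba call at 180 min against 0 min (0.0545). Over all genes the counts also moved. Against the 66 called at 180 min against 0 min, every row gave 1, leaving out dim genes 101, a trend 112 and leaving out 1 array 15 to 68. Against the 57 at 300 min, these gave 5, 98, 92 and 17 to 61. The causes of these differences were not tested.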
